A study of Rattus norvegicus with 6 samples.

Results

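The genes described here are 10 cytochrome P450 genes of the CYP2 and CYP3 families in rat renal cortex: Cyp2c11, Cyp2c23, Cyp2d4, Cyp2e1, Cyp2j4, Cyp2s1, Cyp2b1, Cyp2b2, Cyp3a9 and Cyp3a18. They were listed by name and found on the array through the RefSeq accession of each probe, which gave 19 probes for the 10 genes, out of 15284 gene symbols matched on the array. Male Sprague-Dawley rats, bought at 5 weeks of age, received o-nitroanisole at 400 mg/kg/day (3 rats) or corn oil, the vehicle (3 rats), for 4 weeks. Total RNA of the renal cortex of each rat was measured on 1 one-colour (Cy3) Agilent array, and the submitters' design text calls the 3 arrays of a group biological replicates. o-Nitroanisole, or 2-methoxynitrobenzene, is a nitroaromatic compound, and the comparison asks how its repeated dosing alters gene expression in the renal cortex. The tissue is bulk cortex, in which fewer cells of a type and less RNA per cell cannot be told apart.

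Cytochromes P450 are heme enzymes of the endoplasmic reticulum that insert oxygen into drugs, toxicants, steroids and fatty acids, with electrons passed on by P450 reductase (Por) and cytochrome b5 (Cyb5a). Most CYP2 and CYP3 enzymes are known from liver. In the rat kidney the proximal tubule carries most P450, and its CYP2C and CYP2J enzymes are known for turning arachidonic acid into epoxides that act on tubular transport and vessel tone. Cyp2c11 is the male-predominant P450 of rat liver, where the pulsed growth hormone of males drives it through the transcription factor Stat5b.

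The promoters of 4 members are shown because the results return to these genes. Cyp2c11 differed most between rats, the probes of Cyp2b2 disagreed most, and Cyp2b1 is the close copy of Cyp2b2 that was not detected. Cyp2e1 shared the lowest o-nitroanisole rat with Cyp2d4 and the brightest Cyp2b2 probe. Each line is the 250 bases before the RefSeq start site in assembly GRCr8, 5′ to 3′ on the gene's own strand, with capitals for the motif matches given after them. The regions are chr1:246174966-246175215 (plus strand) for Cyp2c11, chr1:205269717-205269966 (plus strand) for Cyp2e1, chr1:90722031-90722280 (plus strand) for Cyp2b2 and chr1:90645869-90646118 (plus strand) for Cyp2b1.
Cyp2c11: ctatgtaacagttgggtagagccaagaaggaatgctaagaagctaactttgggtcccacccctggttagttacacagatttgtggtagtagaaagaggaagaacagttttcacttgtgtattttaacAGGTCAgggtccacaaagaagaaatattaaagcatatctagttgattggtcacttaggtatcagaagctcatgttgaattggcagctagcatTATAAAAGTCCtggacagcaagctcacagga
Cyp2e1: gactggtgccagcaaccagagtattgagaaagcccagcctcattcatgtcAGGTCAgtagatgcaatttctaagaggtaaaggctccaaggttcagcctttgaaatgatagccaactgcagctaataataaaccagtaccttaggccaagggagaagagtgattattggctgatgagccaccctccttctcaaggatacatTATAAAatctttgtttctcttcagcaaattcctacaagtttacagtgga
Cyp2b2: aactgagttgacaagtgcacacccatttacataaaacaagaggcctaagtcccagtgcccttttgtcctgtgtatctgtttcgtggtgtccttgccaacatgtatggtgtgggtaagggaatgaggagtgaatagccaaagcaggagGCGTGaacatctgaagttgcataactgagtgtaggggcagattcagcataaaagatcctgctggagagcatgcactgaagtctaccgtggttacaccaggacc
Cyp2b1: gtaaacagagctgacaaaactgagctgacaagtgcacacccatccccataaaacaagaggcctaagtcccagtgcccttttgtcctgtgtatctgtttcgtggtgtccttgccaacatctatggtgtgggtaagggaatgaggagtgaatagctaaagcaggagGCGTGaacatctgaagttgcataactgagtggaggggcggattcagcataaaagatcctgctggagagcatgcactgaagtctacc

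The Cyp2b1 and Cyp2b2 promoters were identical at 225 of 233 aligned bases (96.6%). Both strands were searched for 6 short motifs. The TATA box TATAAA lay in the promoters of Cyp2c11 and Cyp2e1 and in 12.9% of 33469 rat promoters of the same length. The nuclear receptor motif AGGTCA lay in those of Cyp2c11, Cyp2e1 and Cyp2s1 and in 14.1% of all. The aryl hydrocarbon receptor core GCGTG lay in those of Cyp2b1 and Cyp2b2 and in 25.9% of all. The HNF4 motif AAAGTCC lay in Cyp2c11, where it overlaps the TATA box by 2 bases, and in 3.99% of all. The STAT5 motif TTCNNNGAA lay in Cyp2j4 and in 7.67% of all, and the HNF1 motif GTTAAT in none of the 10 members and in 6.45% of all. A match here describes letters in this window and is no evidence of binding.

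Levels are given as relative signal, the background-subtracted processed signal of a probe divided by the 75th percentile of its array, and log2 values refer to this quantity. Different probes have different affinities, so a level is compared between rats and never between genes. Probe sequences were not used here. The CYP2B, CYP2C, CYP2D and CYP3A genes are families of near-identical copies, so a probe named for a gene may also pick up a relative.

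The members fell into detected and undetected genes. Of the 10, 7 were well above background, by the scanner software's flag, on all 6 arrays and entered the tests. Cyp2b1, a phenobarbital-inducible enzyme of rat liver, was well above background on none of the arrays, and neither was Cyp3a9, a female-predominant CYP3A enzyme of rat liver. Cyp3a18, a CYP3A enzyme of rat liver, was well above background in 1 of 3 o-nitroanisole rats and in 1 of 3 corn oil rats. Cyp2b1 read 0.00290, 0.0121 and 0.00414 in o-nitroanisole rats, against 0.00478, 0.00315 and 0.00512 in corn oil rats. Cyp3a9 read 0.00325, 0.00376 and 0.00646 in o-nitroanisole rats, against 0.0130, 0.00243 and 0.00402 in corn oil rats. Cyp3a18 read 0.0114, 0.0275 and 0.00628 in o-nitroanisole rats, against 0.0240, 0.00612 and 0.00640 in corn oil rats. For these 3 genes no fold is given, since neither group was measured above background throughout.

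**Figure D1:**
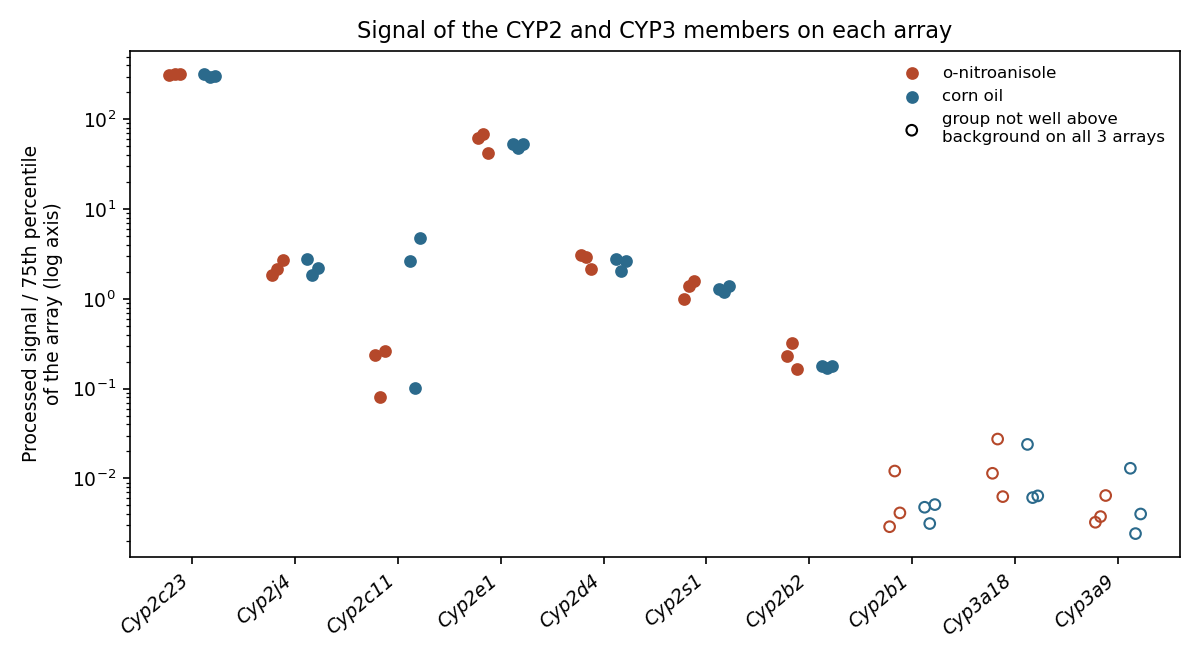
Relative signal (processed signal over the 75th percentile of the array, log axis) of each of the 10 members on each array, by the probe that represents the gene. Points are single rats, o-nitroanisole left and corn oil right of each gene name, and open circles mark groups that were not well above background on all 3 arrays. Cyp2c11 covers the widest range among the 7 detected members, with corn oil rat 2 at 0.103 among the o-nitroanisole rats.

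None of the 7 tested members differed between the groups past an adjusted p of 0.05 (limma, Benjamini-Hochberg over 32428 features). The share of all features past that threshold was 0%. With no adjustment, 0 members had a p under 0.05, against 18.9% of all features (11.8% higher, 7.12% lower). The groups overlapped for each of the 7 members, whereas they did not overlap for 27.2% of all features (17.6% higher, 9.56% lower). Moderation with a trend in the variance and robust to outlying genes, called the trend and robust fit from here on, gave 0 members and 1.61% of all features. At an adjusted p of 0.10 there were 0 members and 1.11% of all features. The median log2 difference was 0.06 over the 7 members and 0.03 over all features, with 5 members above 0 and 2 below. All arrays of the o-nitroanisole rats lay on slide 2 and scan 2 and all arrays of the corn oil rats on slide 1 and scan 1, so slide and treatment cannot be told apart.

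Cyp2c23, the main arachidonic acid epoxygenase of the rat kidney, was the steadiest member. Its relative signal was 313, 322 and 322 in o-nitroanisole rats, against 317, 298 and 304 in corn oil rats. The highest rat exceeded the lowest by 1.03-fold within the o-nitroanisole group and by 1.07-fold within the corn oil group, and the groups overlapped. The log2 difference was 0.06 ± 0.06 (SE, n = 3 per group, adjusted p = 0.618), with a 95% interval of 0.944 to 1.15 as a fold. It lay at -0.04 with quantile scaling, so the data give no settled direction. Its SD between rats stood at percentile 4.18 among all features tested.

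Cyp2j4, another CYP2 enzyme able to oxidise arachidonic acid, had 3 probes, all well above background on all arrays. The representing probe read 1.84, 2.13 and 2.72 in o-nitroanisole rats, against 2.77, 1.85 and 2.23 in corn oil rats. The 3 probes placed the rats of the o-nitroanisole group in the same order, with rat 1 lowest and rat 3 highest. The log2 difference was -0.03 ± 0.20 (adjusted p = 0.947), with a 95% interval of 0.691 to 1.39 as a fold. The other probes gave 0.09 and 0.06, and the sign thus differed between probes of the gene.

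Cyp2c11 showed the widest spread of any member. Its relative signal was 0.240, 0.0807 and 0.261 in o-nitroanisole rats, against 2.63, 0.103 and 4.79 in corn oil rats. Corn oil rats 1 and 3 lay above every o-nitroanisole rat, whereas corn oil rat 2 lay within the o-nitroanisole range. The highest corn oil rat exceeded the lowest by 46.6-fold, and the highest o-nitroanisole rat the lowest by 3.24-fold. On the log2 scale the mean was -2.54 ± 0.95 in o-nitroanisole rats and 0.12 ± 2.98 in corn oil rats (SD, n = 3 each). The difference of -2.66 ± 1.51 (SE) did not pass (adjusted p = 0.40), and its 95% interval ran from -6.39 to 1.06. Without corn oil rat 2 it was -4.37 (adjusted p = 0.135, and 0.0574 with the trend and robust fit), and without corn oil rat 3 it was -1.60 (adjusted p = 0.655). The pooled SD of Cyp2c11 stood at percentile 99.9 among all features tested.

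**Figure D2:**
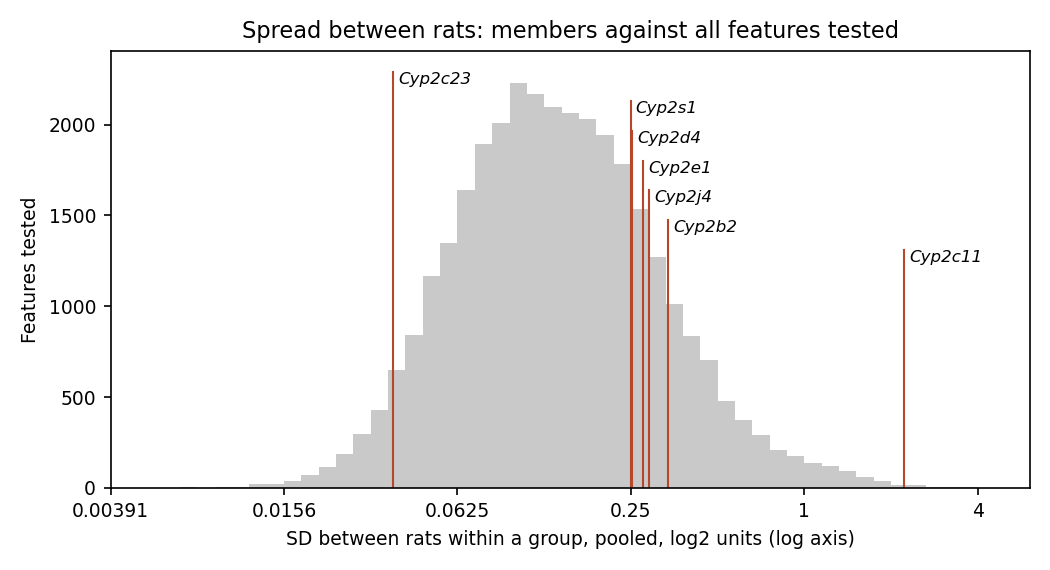
Histogram of the SD between rats within a group, pooled over both groups, in log2 units (log axis) for all features tested, with a line at each of the 7 tested members. Cyp2c23 lies at the narrow end, at percentile 4.18, and Cyp2c11 at the wide end, at percentile 99.9. Line heights are set for legibility and carry no value.

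Cyp2e1, which oxidises ethanol and other small molecules, read 61.7, 69.3 and 42.1 in o-nitroanisole rats, against 53.3, 47.4 and 53.0 in corn oil rats. The o-nitroanisole rats lay on both sides of all corn oil rats. The log2 difference was 0.14 ± 0.19 (adjusted p = 0.730), with a 95% interval of 0.790 to 1.54 as a fold. Within the groups the log2 SD was 0.38 in o-nitroanisole rats and 0.10 in corn oil rats.

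Cyp2d4, the CYP2D enzyme known from rat brain, read 3.08, 2.89 and 2.18 in o-nitroanisole rats, against 2.81, 2.06 and 2.63 in corn oil rats, and the groups overlapped. Its log2 difference was 0.12 ± 0.18 (adjusted p = 0.759), with a 95% interval of 0.798 to 1.47 as a fold. For Cyp2e1, Cyp2d4 and the representing probe of Cyp2b2, o-nitroanisole rat 3 was the lowest of its group. Corn oil rat 2 was the lowest of its group on the representing probe of every tested member. The share of all features with either order was not counted. On the representing Cyp2b2 probe the corn oil rats lay within 1.05-fold of each other, so their order carries little weight.

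Cyp2s1, a CYP2 enzyme of epithelia outside the liver, had 4 probes well above background on all arrays. The representing probe read 1.01, 1.38 and 1.58 in o-nitroanisole rats, against 1.27, 1.18 and 1.39 in corn oil rats. Its log2 difference was 0.03 ± 0.18 (adjusted p = 0.948), with a 95% interval of 0.752 to 1.38 as a fold. The other probes gave -0.15, 0.17 and -0.07, so 2 probes lay above 0 and 2 below. One of them, at -0.15, had groups that did not overlap, at 0.264, 0.305 and 0.306 in o-nitroanisole rats, against 0.326, 0.316 and 0.325 in corn oil rats (adjusted p = 0.380 when every probe was tested singly).

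Cyp2b2, which like Cyp2b1 is induced by phenobarbital in rat liver, was the member whose probes disagreed most. Its brightest probe, well above background on all arrays, read 0.232, 0.323 and 0.167 in o-nitroanisole rats, against 0.177, 0.170 and 0.178 in corn oil rats. The corn oil rats lay within 1.05-fold of each other, and the o-nitroanisole rats lay on both sides of them. The log2 difference was 0.41 ± 0.24 (adjusted p = 0.410), with a 95% interval of 0.885 to 1.98 as a fold. It was 0.17 without o-nitroanisole rat 2 and 0.64 without o-nitroanisole rat 3.

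Of the other Cyp2b2 probes, 2 were well above background on all 3 o-nitroanisole arrays and on no corn oil array. Probe A_64_P006590 read 0.0386, 0.0501 and 0.0282 in o-nitroanisole rats, against 0.00935, 0.00978 and 0.0206 in corn oil rats. Against the detection limit of the corn oil arrays, or the probe's own value where larger, this was 2.31-fold higher in o-nitroanisole rats (adjusted p = 0.133 when every probe was tested singly). Unflagged signal can exceed that limit, so the fold is not a strict lower bound. Probe A_44_P311324 read 0.0248, 0.0337 and 0.0209 in o-nitroanisole rats, against 0.00913, 0.00714 and 0.0133 in corn oil rats. On the same basis it was 1.61-fold higher in o-nitroanisole rats (adjusted p = 0.115). Both probes entered the tests through the o-nitroanisole arrays only, which favours a higher value in that group. The groups did not overlap for either probe (17.6% of all features were higher without overlap), and neither passed the threshold.

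The remaining Cyp2b2 probes did not share that pattern. Probe A_44_P311323 read 0.0345, 0.128 and 0.0249 in o-nitroanisole rats, against 0.0267, 0.0189 and 0.0258 in corn oil rats, with rat 2 of the o-nitroanisole group apart from the others (adjusted p = 0.424). Probe A_44_P311322 was well above background in 1 o-nitroanisole rat and 2 corn oil rats and did not enter the tests. The mean over the tested probes gave a log2 difference of 1.12 (adjusted p = 0.186). Except for the brightest, those probes entered through the o-nitroanisole arrays only, which tilts the mean towards higher values in that group. Probe A_44_P311322, left out by the filter, differed by -0.29. Which transcripts of the CYP2B cluster each probe detects was not tested.

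**Figure D3:**
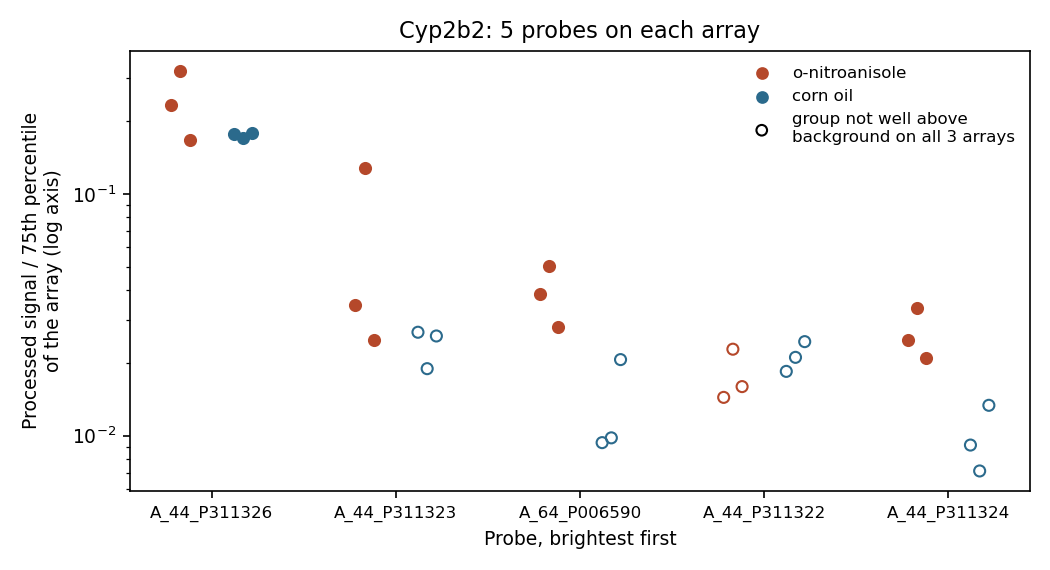
Relative signal (log axis) of the 5 Cyp2b2 probes on each array, o-nitroanisole left and corn oil right of each probe, with open circles for groups not well above background on all 3 arrays. On the brightest probe the o-nitroanisole rats lie at 0.167 to 0.323 and surround the corn oil rats, and on A_64_P006590 and A_44_P311324 they lie above all corn oil rats.

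Of 25 other CYP2 and CYP3 genes on the array, 14 entered the tests and 0 passed an adjusted p of 0.05. At an unadjusted p under 0.05 there were 3 of the 14, against 18.9% of all features. These were Cyp2f4 and Cyp3a23-3a1, both higher, and Cyp2d1, lower. Cyp3a23-3a1 entered the tests through the o-nitroanisole arrays only, which favours a higher value in that group. Among features well above background on all 6 arrays there were 2 of 10, against 5969 of 30917 features. At an adjusted p of 0.05 in the trend and robust fit there was 1 of the 14, against 1.61% of all features. That gene was Cyp2f4, a lung-type P450 that activates naphthalene in rodents. It read 1.58, 1.13 and 1.35 in o-nitroanisole rats, against 0.795, 0.722 and 0.696 in corn oil rats. The groups did not overlap, and the log2 difference was 0.86 ± 0.14 (adjusted p = 0.0979, and 0.0393 with the trend and robust fit). In that fit the adjusted p lay between 0.0708 and 0.124 on leaving out any 1 rat.

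Cyp2d1 and Cyp2d5, the near-identical CYP2D enzymes of rat liver and kidney, ordered the corn oil rats as Cyp2c11 did. Cyp2d1 read 41.4, 34.3 and 39.0 in o-nitroanisole rats, against 60.1, 41.4 and 78.3 in corn oil rats, a log2 difference of -0.60 ± 0.24 (adjusted p = 0.255). Cyp2d5 differed by -0.56 ± 0.24 (adjusted p = 0.282). Cyp2j3, a CYP2J enzyme, read 0.199, 0.218 and 0.299 in o-nitroanisole rats, against 0.454, 0.241 and 0.434 in corn oil rats. Its log2 difference was -0.62 ± 0.29 (adjusted p = 0.321). The other Cyp2j3 probes gave -0.53, 0.07 and -1.05, so the sign differed between probes of the gene. The probe at -1.05 entered the tests through the corn oil arrays only. For Cyp2d1, Cyp2d5 and Cyp2j3 corn oil rat 2 was again the lowest corn oil rat.

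Some other liver-type CYP3A and CYP2C genes were below the flag for signal well above background on part of the arrays. Cyp3a23-3a1, a CYP3A enzyme of rat liver, read 0.0253, 0.0621 and 0.0178 in o-nitroanisole rats, against 0.0219, 0.00244 and 0.00430 in corn oil rats. It was well above background in 3 of 3 o-nitroanisole rats and in 1 of 3 corn oil rats, so its fitted log2 difference of 2.31 ± 0.91 (adjusted p = 0.256) rests on signals that were not measured above background. Under normexp background correction it was 0.50, smaller than the 0.82 of Cyp2f4. Cyp2c6v1 read 0.0727, 0.140 and 0.0820 in o-nitroanisole rats, against 0.0719, 0.0281 and 0.00462 in corn oil rats, a fitted log2 difference of 2.16 ± 1.00 (adjusted p = 0.317). Corn oil rat 3 was not well above background for it, and the difference was 1.07 without that rat, 3.04 without corn oil rat 1 and 0.74 under normexp. The liver genes Alb and Ttr were also measured. Alb, which encodes serum albumin, read 1.04, 1.86 and 0.718 in o-nitroanisole rats, against 3.74, 1.33 and 0.396 in corn oil rats.

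Cyp2c6v1 and Alb both had corn oil rat 1 highest and corn oil rat 3 lowest. Of the 12 hepatocyte genes tested, 7 had that order of the corn oil rats, the other 5 had corn oil rat 2 lowest as Cyp2c11 did, and 2 of these had the full Cyp2c11 order. The share of all features with each order was not counted, so these counts are descriptive only. The hepatocyte list held 16 genes, and for the 12 tested the summed relative signal was 21.8 to 40.4 in o-nitroanisole rats, against 24.8 to 36.5 in corn oil rats. Tf, F2 and Apoc3 carried most of that sum, which therefore hides the spread of dimmer genes such as Alb and Ttr. Ttr read 2.39, 1.02 and 0.267 in corn oil rats. Of the list genes that did not enter the tests, Tat and Cyp7a1 were not well above background on any array, and Cps1 and Cyp1a2 were on 1 array each. The part of liver-type transcripts in these low values was not tested.

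**Figure D4:**
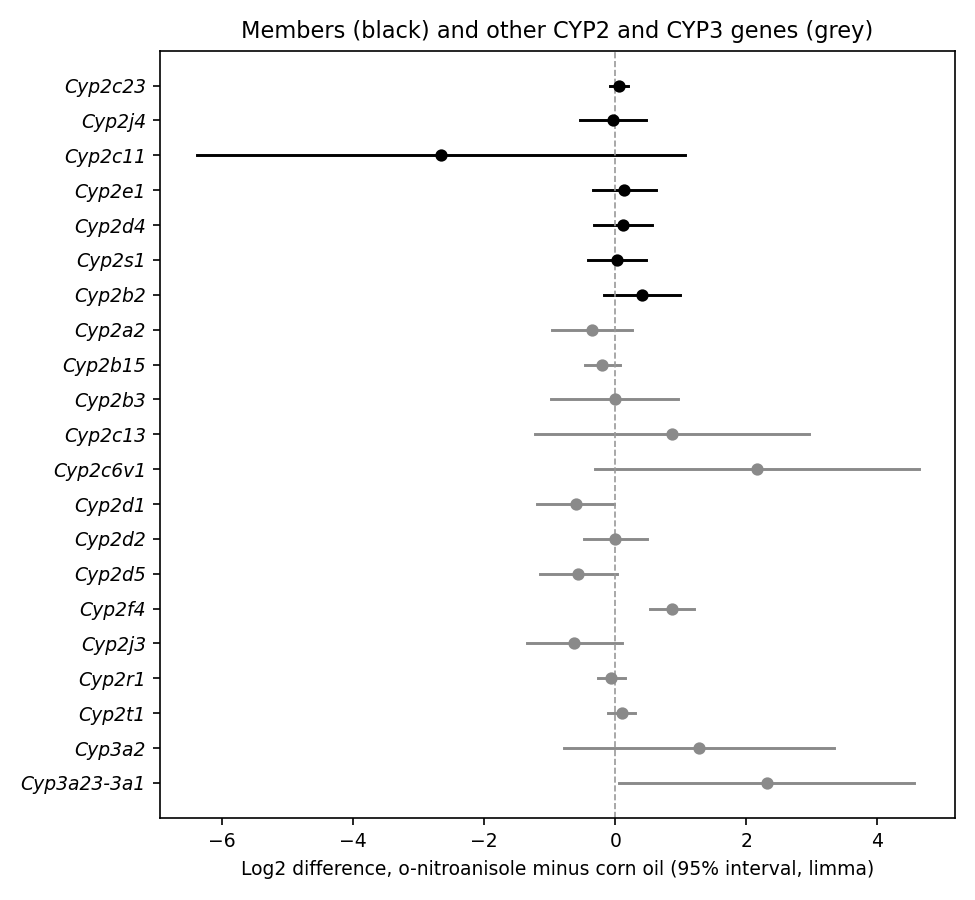
Log2 difference, o-nitroanisole minus corn oil, with its 95% interval from limma (horizontal axis), for the 7 tested members in black and the 14 other tested CYP2 and CYP3 genes in grey. All 7 member intervals include 0. That of Cyp2c11 is the widest, from -6.39 to 1.06, and that of Cyp2c23 is among the narrowest.

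The electron donors Por and Cyb5a were measured because every member depends on such donors. Por, which reduces all microsomal P450 enzymes, read 12.1, 11.7 and 12.4 in o-nitroanisole rats, against 7.96, 7.53 and 6.72 in corn oil rats. Its log2 difference was 0.71 ± 0.08 (adjusted p = 0.0789, 0.0248 with the trend and robust fit and 0.0335 under normexp background correction). Cyb5a, cytochrome b5, read 41.5, 39.9 and 40.3 in o-nitroanisole rats, against 30.8, 30.2 and 31.4 in corn oil rats, a log2 difference of 0.40 ± 0.06 (adjusted p = 0.0880, and 0.0242 with the trend and robust fit). For both genes every o-nitroanisole rat lay above every corn oil rat. Of the 8 partner genes on the list, all tested, 0 passed an adjusted p of 0.05, 3 had an unadjusted p under 0.05 (18.9% of all features), and the median log2 difference was 0.14, against 0.03 for all features.

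On leaving out 1 rat at a time, the adjusted p in that fit was 0.0399 to 0.0744 for Por and 0.0517 to 0.0745 for Cyb5a, while the log2 difference was 0.64 to 0.76 for Por and 0.38 to 0.41 for Cyb5a. Each such fit also has 1 rat fewer. Of 9 red blood cell markers tested, 8 had an unadjusted p under 0.05, all higher in o-nitroanisole rats, against 11.8% of all features. The median log2 difference of the 9 was 1.03. Slc4a1, among the 8, is also on the list of medulla and collecting duct markers. Whether the difference of Por exceeds that of a member was not tested.

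Enzymes downstream of the epoxygenases were listed with the hydroxylases of arachidonic acid. Of 18 genes, 15 entered the tests, 0 passed an adjusted p of 0.05, 6 had an unadjusted p under 0.05, all of them higher (11.8% of all features were higher at that p), and the median log2 difference was 0.30, against 0.03 for all features. Ephx1, the microsomal epoxide hydrolase, read 13.9, 14.1 and 13.0 in o-nitroanisole rats, against 8.29, 8.79 and 8.65 in corn oil rats (adjusted p = 0.0711, and 0.0201 with the trend and robust fit). Its log2 difference was 0.67 ± 0.06. It passed under normexp background correction (adjusted p = 0.0301), and with the trend and robust fit on leaving out 1 rat at a time the adjusted p was 0.0399 to 0.0685.

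Ephx2, the soluble epoxide hydrolase that breaks down the arachidonic acid epoxides, had the largest difference on that list. It read 7.66, 4.21 and 2.18 in o-nitroanisole rats, against 0.230, 3.21 and 0.227 in corn oil rats. Corn oil rat 2, the corn oil rat with the lowest Cyp2c11, had the highest Ephx2 of its group and lay within the o-nitroanisole range. The log2 difference was 2.90 ± 1.15 (adjusted p = 0.256), and without corn oil rat 2 it was 4.17 (adjusted p = 0.134, and 0.0541 with the trend and robust fit). It was 2.27 without corn oil rat 1 (adjusted p = 0.465) and 2.26 without corn oil rat 3 (adjusted p = 0.467). The hydroxylases Cyp4a8 and Cyp4a2 differed by -0.09 ± 0.08 and -0.04 ± 0.09 (adjusted p = 0.593 and 0.847). Cyp4f1 and Cyp4f6 were higher without overlap of the groups, at 0.32 ± 0.11 and 0.33 ± 0.12 (adjusted p = 0.225 and 0.222). The other tested Cyp4a and Cyp4f genes lay between -0.46 (Cyp4f5) and 0.30 (Cyp4f4).

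**Figure D5:**
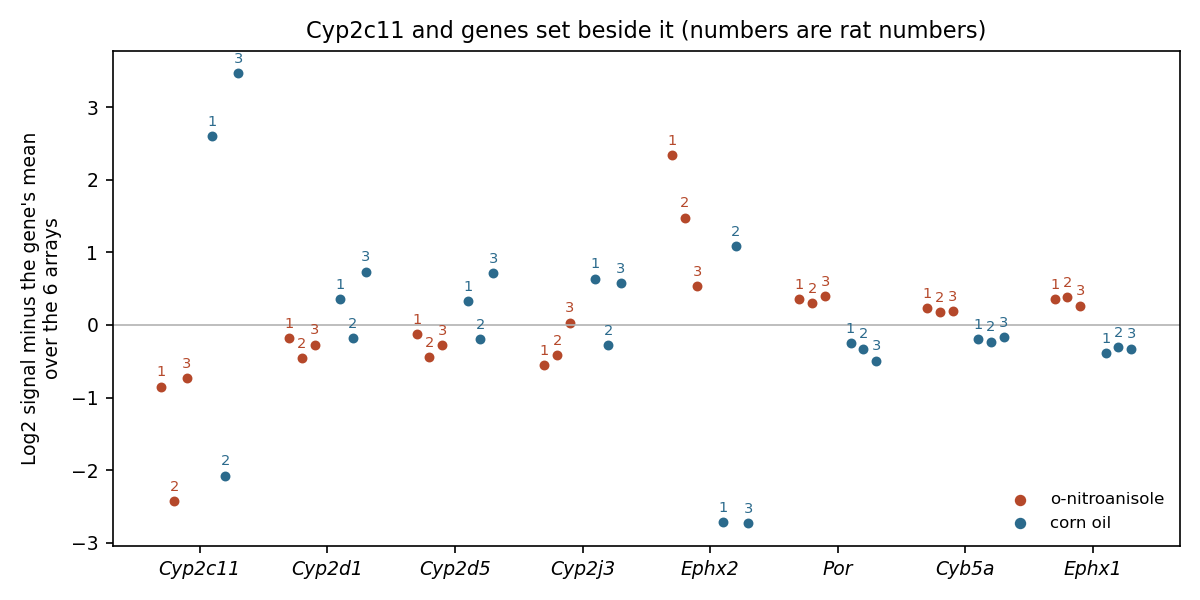
Log2 relative signal of each gene minus its mean over the 6 arrays, for Cyp2c11, other genes of the CYP2 families, epoxide hydrolases and electron donors, with o-nitroanisole rats left and corn oil rats right of each gene and rat numbers above the points. Corn oil rat 2 stands with the o-nitroanisole rats for Cyp2c11 and Ephx2, whereas all o-nitroanisole rats lie above all corn oil rats for Por, Cyb5a and Ephx1.

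Genes known to control CYP2 and CYP3 transcription were measured on the same arrays. Of 20 such genes, 17 entered the tests, 0 passed an adjusted p of 0.05, 3 had an unadjusted p under 0.05, a share near the 18.9% of all features, and the median log2 difference was 0.14, against 0.03 for all features. Rxra, a retinoid X receptor that pairs with the xenobiotic receptors, had the smallest p and differed by 0.28 ± 0.06 (adjusted p = 0.121). Ppara, the fatty acid receptor, had the largest difference, at 0.82 ± 0.46 (adjusted p = 0.393). The xenobiotic receptors were Nr1i2 (PXR), at 0.24 ± 0.06 (adjusted p = 0.151), and Nr1i3 (CAR), at 0.14 ± 0.19 (adjusted p = 0.727).

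Growth hormone and androgen signalling genes were listed because of Cyp2c11. Of 17 genes, 15 entered the tests, 0 passed an adjusted p of 0.05, 4 had an unadjusted p under 0.05 (18.9% of all features), and the median log2 difference was -0.17, against 0.03 for all features. Stat5a, a transcription factor of the growth hormone and prolactin receptors, had the smallest p. It read 1.21, 1.13 and 1.23 in o-nitroanisole rats, against 1.57, 1.5 and 1.57 in corn oil rats (adjusted p = 0.105, and 0.0459 with the trend and robust fit, which lost it on leaving out any 1 rat). Socs2, a feedback inhibitor of growth hormone signalling, had the largest difference, at -0.72 ± 0.24 (adjusted p = 0.209). The growth hormone receptor gene Ghr lay at -0.04 ± 0.09 (adjusted p = 0.845).

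Cyp2c11 had both the widest SD and the smallest unadjusted p of the tested members (0.129), so the genes most like it across rats were sought. By Pearson's r of log2 values over the 6 arrays, among 11810 other genes with a symbol, these were Taldo1, a pentose phosphate enzyme (r = 0.996, Spearman's rho = 1), Zbed4 (0.981, 0.943) and Stat5b, the mediator of growth hormone in male rat liver (0.979, 0.886). Without the 2 rats farthest from the Cyp2c11 median, r was 0.989, 0.817 and 0.865. These are the highest of many values over few rats, 32 genes exceeded 0.95, and no p is given. Stat5b read 0.167, 0.149 and 0.158 in o-nitroanisole rats, against 0.193, 0.149 and 0.194 in corn oil rats, so its spread was far smaller than that of Cyp2c11.

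Markers of the cells that carry or could add these transcripts were compared. Proximal tubule markers, 24 of 24 tested, summed to 4164 to 4325 relative signal units in o-nitroanisole rats, against 4143 to 4432 in corn oil rats. Within that sum, 6 markers were higher and 4 lower at an unadjusted p under 0.05, against 11.8% and 7.12% of all features. The tubular transporter Slc7a13 had the largest difference of the 24, at -1.41. Medulla and collecting duct markers, 9 of 10 tested, summed to 540.3 to 549.7 in o-nitroanisole rats, against 583.8 to 626.3 in corn oil rats. Without Umod, the loop of Henle gene that is by far the brightest of them, the sums were 140 to 161 in o-nitroanisole rats, against 123 to 132 in corn oil rats, and the median log2 difference of the 9 was 0.01. Red blood cell markers, 9 of 13 tested, summed to 936 to 1213 in o-nitroanisole rats, against 577 to 671 in corn oil rats. Slc4a1 was counted in this list and in the medulla and collecting duct list. Macrophage and lymphocyte markers, 10 of 12 tested, summed to 94.1 to 106 in o-nitroanisole rats, against 94.7 to 101 in corn oil rats. Endothelium and vessel wall markers, 8 of 9 tested, summed to 33.0 to 36.3 in o-nitroanisole rats, against 30.9 to 32.8 in corn oil rats. Kdr carried most of that sum, at 21.7 to 25.1 in o-nitroanisole rats, against 20.4 to 21.7 in corn oil rats. Of the 8, 0 had an unadjusted p under 0.05 (18.9% of all features), and their median log2 difference was 0.08. Adipose and adrenal markers, 5 of 10 tested, summed to 1.33 to 1.53 in o-nitroanisole rats, against 1.42 to 1.68 in corn oil rats. The adrenal genes Cyp11b1, Cyp11b2 and Star were not well above background on any array, whereas Cyp21a1 and Cyp17a1 were on all arrays. Cyp21a1 read 0.254, 0.233 and 0.206 in o-nitroanisole rats, against 0.445, 0.307 and 0.378 in corn oil rats (limma, adjusted p = 0.131). Cyp17a1 differed by -0.06 on the log2 scale (adjusted p = 0.860). The part of the red blood cell difference in the values of Por, Cyb5a and Ephx1 was not tested.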

How the data were processed

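RNA of 6 renal cortices was measured on 6 one-colour arrays. Per the file headers, the deposited scanner files hold spot intensity from Agilent Feature Extraction (10.7 per the submitters' processing notes), background-subtracted and detrended within the array and not scaled between arrays. A deposited table of values gives a ratio in each column, equal to the processed signal over that array's 75th percentile. Its o-nitroanisole columns matched their own scanner files for 100% of probes well above background within 1%. Its 3 corn oil columns matched the corn oil files in another order, so the numbers of the corn oil rats, taken here from the scanner files, are not settled, while the groups are. The log2 of the processed signal, deposited as intensity, minus the array's 75th percentile (905 to 1041 units) was analysed. The number of arrays limits the precision. Per array, 66.4% to 71.5% of the 61657 probes other than controls passed the software's flag for signal well above background, and 0 were saturated.

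Probes were named by unversioned RefSeq accession in a gene table of GRCr8 (27460 of 33356 accession-bearing probes). The array headers name build rn4, so array coordinates are not used here. Spike-in probes (84) were left out and outlier spots set to missing, none of them on a CYP2 or CYP3 probe. A probe was tested if well above background on all arrays of 1 group, the brightest probe represented a gene, and unnamed probes stayed single (32428 features). Groups were compared with limma 3.58.1 (R 4.3.3) at an adjusted p of 0.05, tested on simulated data first. For a fold against the detection limit, each array of the dim group was set to that limit or to the probe's value if larger, and these log2 values were averaged. The limit was the lowest signal flagged as well above background on the array, which unflagged probes can exceed. Python 3.11.15, pandas 2.3.3 and matplotlib 3.10.9 read the tables and drew the plots.

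The members and lists were chosen with earlier results of these data known. The rule for named genes took the members, and in each list the genes past the threshold or else those with the largest difference and the smallest p. It also took the 3 genes most like the widest member. Cyb5a, Nr1i2, Nr1i3, Cyp2c6v1, Cyp2d1, Cyp2d5, Cyp2j3, Cyp4a8, Cyp4a2, Cyp4f1, Cyp4f4, Cyp4f5, Cyp4f6, Ghr and the single marker genes were named after their values were seen. Replicate numbers were shared by the groups, but the deviations of same-numbered arrays correlated at 0.091, 0.058 and 0.026, so the numbers were not taken as pairs. Alternatives were other scalings, background corrections, filters, probe summaries and moderation, the value table, a looser threshold, the replicate block and leaving out each rat. The normexp correction used the median signal.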

Additional observations from a re-analysis of the deposited data

How the results depend on the processing

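No member passed its threshold under any of the alternatives run. The number of features changed was 0 with limma as used in the report, whereas 6142 features had an unadjusted p under 0.05. It was 522 with the variance trend and robust moderation (401 higher, 121 lower), 115 under normexp background correction (76 higher, 39 lower) and 359 at an adjusted p of 0.10 (219 higher, 140 lower). On leaving out 1 rat at a time it was 0 to 8. With trend and robust moderation and 1 rat left out together, a combination chosen after seeing the data, it was 25, 0 and 24 without o-nitroanisole rats 1, 2 and 3, and 6, 58 and 67 without corn oil rats 1, 2 and 3. Each of these fits has 1 rat fewer, and otherwise the cause was not tested. Of the other CYP2 and CYP3 genes, 1 passed with the trend and robust fit and 1 at an adjusted p of 0.10, Cyp2f4 in both.

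Small differences changed sign. That of Cyp2c23 was -0.0355 with quantile scaling. With the mean over the probes of a gene, Cyp2j4 was at 0.0392 and Cyp2s1 at -0.00545. Over the fits leaving out 1 rat, with or without trend and robust moderation, Cyp2d4 ranged from -0.0165 to 0.27, Cyp2e1 from -0.00755 to 0.35, Cyp2j4 from -0.18 to 0.118 and Cyp2s1 from -0.114 to 0.21. Cyp2j4 was at 0.0988 without o-nitroanisole rat 1 and at 0.118 without corn oil rat 1. Cyp2s1 was at -0.0151 without o-nitroanisole rat 2, -0.114 without o-nitroanisole rat 3 and -0.0306 without corn oil rat 2. Cyp2d4 was at -0.0165 without corn oil rat 2, and Cyp2e1 at -0.00755 without o-nitroanisole rat 2.

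With the replicate number as a block, the number of features changed was 0, that of members 0, and Cyp2c11 had an adjusted p of 0.283. The slide block was not run, since each slide held 1 group. For Cyp2b1, Cyp3a9, Cyp3a18 and the dim Cyp2b2 probes, signal close to background limits any comparison.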
